A study of Mus musculus with 12 samples.

Results

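Small RNA sequences of 33 to 40 nt were the long tail of the deposited piRNA table of mouse testis, and they were selected by length alone. They numbered 59732 of the 1018402 sequences in the table (5.87%), and all 12 libraries were used. The source was testis total RNA of C57BL/6 males, 4 months of age. Small RNA of 17 to 40 nt was sequenced from inputs of 10, 50 and 100 ng, either before or after oxidation with sodium periodate (NaIO4), each of the 6 groups having 2 technical replicates. The shared library method was 10ng-seq, and spike-in RNA was scaled to the input. The labels do not give the number of mice, so every p-value below measures the spread between libraries and none refers to differences between animals. The comparison of libraries before and after oxidation asks which RNAs carry a protected 3′ end, and the inputs ask how that readout depends on the amount of RNA.

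piRNAs guide PIWI proteins, which silence transposons and other transcripts in germ cells. A piRNA is made from a longer precursor whose 5′ end is set first, and whose 3′ end is then shortened by the exonuclease PNLDC1 to the length that the PIWI protein covers. The methyltransferase HENMT1 adds a 2′-O-methyl group to the finished 3′ end. Periodate oxidizes an unmodified 3′ end, which can then no longer be ligated to the adapter, whereas a 2′-O-methylated end is left intact. Abundance is given here as RPM, reads scaled to the library total, and each sequence is named by its length and its rank in mean RPM before oxidation among the sequences of that length (L33-1 is the highest of 33 nt).

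The sequences on which the results turn are the most abundant of each length, those that fell furthest and those that rose. They are shown 5′ to 3′ as in the table, with T for U. Capitals mark bases that pair with each other in the structure predicted for the last 20 bases, and are given only where that structure had a folding energy of at most -3 kcal/mol. The letters of L36-1 are not printed because it matched annotated untranslated regions and many loci. The first set holds the most abundant sequence of each other length.
L33-1: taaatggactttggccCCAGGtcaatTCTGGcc
L34-1: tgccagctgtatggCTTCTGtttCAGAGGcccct
L35-1: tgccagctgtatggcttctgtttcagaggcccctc
L37-1: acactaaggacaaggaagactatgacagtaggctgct
L38-1: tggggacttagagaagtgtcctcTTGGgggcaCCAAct
L39-1: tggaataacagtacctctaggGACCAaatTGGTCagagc
L40-1: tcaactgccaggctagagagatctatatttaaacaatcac

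The next set holds other sequences among the 6 highest before oxidation (L33-2 to L33-5) and among the 6 that fell furthest (L35-2, L33-20 and L33-14). Each list of 6 took 1 sequence per start (the same first 20 bases). L34-1, with a log2 change of -5.88, was therefore not counted beside L35-1.
L33-2: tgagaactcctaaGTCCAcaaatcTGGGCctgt
L33-3: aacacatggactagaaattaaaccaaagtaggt
L33-4: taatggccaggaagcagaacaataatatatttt
L33-5: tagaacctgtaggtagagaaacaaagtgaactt
L35-2: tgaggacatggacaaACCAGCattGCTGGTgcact
L33-20: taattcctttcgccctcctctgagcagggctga
L33-14: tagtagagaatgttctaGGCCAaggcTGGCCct

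The last set holds the 6 with the highest log2 fold changes.
L33-188: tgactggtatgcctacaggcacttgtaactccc
L33-189: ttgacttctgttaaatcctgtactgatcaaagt
L33-78: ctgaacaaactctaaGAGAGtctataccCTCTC
L33-186: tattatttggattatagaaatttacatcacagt
L33-185: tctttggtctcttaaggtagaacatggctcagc
L34-47: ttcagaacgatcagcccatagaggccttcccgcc

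The libraries held 1924201 to 3347735 reads by the denominators recovered from the RPM values. Before oxidation 56247 to 75431 reads of a library were long, and after it 12864 to 47466. In the whole table, sequences of 26 to 32 nt, the usual size of testis piRNAs, took 87.9% of the RPM before oxidation, and 89.4% of their RPM began with U. Both 10 ng libraries after oxidation stood apart, with 455 and 735 distinct long sequences against 3107 to 4819 in the other libraries after oxidation and 10090 to 17298 before it. Reads per distinct long sequence were 23.8 and 28.3 in those libraries, 8.18 to 10.8 at 50 and 100 ng after oxidation and 3.84 to 5.57 before it. The same held at 29 to 32 nt, where reads per distinct sequence were 38.8 and 45.6, 15.4 to 19.6 and 10.1 to 14.3 in turn. The part of this in the results at 10 ng was not tested, so values are also given without these libraries.

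Long sequences were a smaller share of the table after oxidation at every input. Their share of table RPM was 2.51%, 2.75% and 2.89% (lowest, median and highest library) before oxidation and 0.759%, 1.34% and 1.58% after it. The groups did not overlap. The mean fell from 2.71% ± 0.153 to 1.24% ± 0.351 (SD, n = 6 libraries each), a log2 change of -1.18 or 2.27-fold lower (exact permutation of the oxidation labels within inputs, 2-sided, p = 0.00926, the smallest that this design can give). By input it was 3.09-fold lower (10 ng), 2.06-fold lower (50 ng) and 1.83-fold lower (100 ng). The difference between inputs did not pass its own exact permutation test (p = 0.212). Without the 4 libraries at 10 ng the share was 1.94-fold lower, with an exact permutation p of 0.0556, the smallest that 36 arrangements allow.

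The fall was larger at 34 to 40 nt than at 33 nt, with a log2 change of -1.55 in the ratio of their RPM (exact permutation p = 0.00926), or -1.42 without the most abundant sequence, which is of 33 nt. The share of 33 nt was 1.33% ± 0.102 before and 0.922% ± 0.285 after oxidation (SD, n = 6 each), 1.51-fold lower, and its groups overlapped slightly, the highest library after oxidation (at 100 ng) lying just above the lowest before it (at 10 ng), with 1.20% in both. From 34 nt upward the groups did not overlap. The share of 34 nt went from 0.405% ± 0.0256 to 0.151% ± 0.0268, 2.71-fold lower, and that of 35 nt from 0.330% ± 0.0173 to 0.0679% ± 0.0203, 5.07-fold lower. At 36, 37, 38, 39 and 40 nt the share was 5.29-fold, 7.16-fold, 7.71-fold, 6.59-fold and 8.93-fold lower. Each of the 8 lengths gave an exact permutation p of 0.00926, also after adjustment over the 8. Sequences of 34 to 40 nt together went from 1.39% ± 0.0528 to 0.320% ± 0.0672 of table RPM, 4.42-fold lower.

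**Figure D1:**
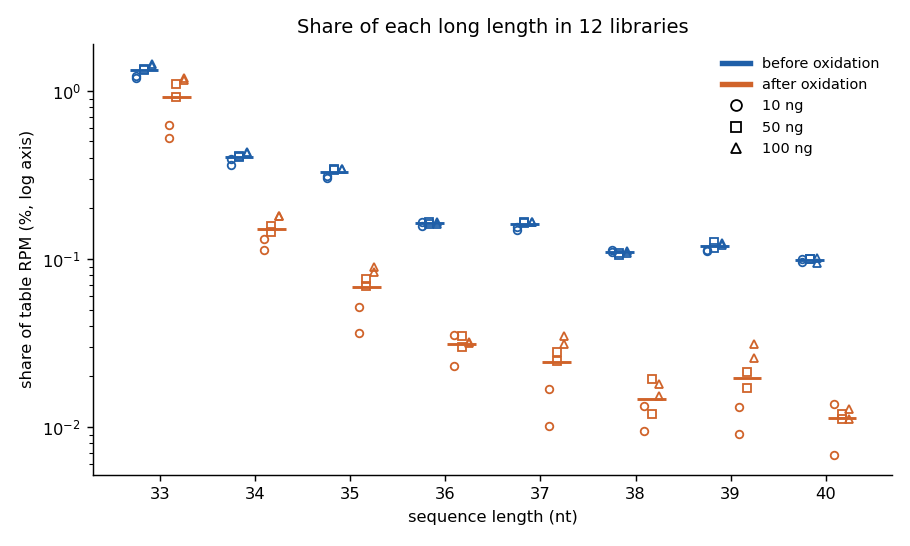
Share of table RPM (percent, log axis) held by each length from 33 to 40 nt in the 12 libraries; blue is before and orange after oxidation, marker shapes give the RNA input, and bars are means of 6 libraries. The groups overlap slightly at 33 nt, near 1.20%, and are apart from 34 nt upward.

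This change differed from that of the neighbouring length classes, 26 to 28 nt and 29 to 32 nt. At 26 to 32 nt the share was 87.9% ± 0.218 before and 88.7% ± 1.52 after oxidation (SD, n = 6 each). The ratio of long to 29 to 32 nt RPM changed by -1.22 on the log2 scale, and that of long to 26 to 28 nt by -1.13 (exact permutation p = 0.00926 for each, also adjusted over both). At 32 nt, the length next to the long class, the share went from 5.11% ± 0.200 to 4.61% ± 0.833, 1.13-fold lower. Per read of the methylated spike-ins, long sequences were 15.9-fold lower after oxidation and 26 to 32 nt sequences 6.96-fold lower (exact permutation p = 0.00926 for each). By input the long sequences were 38.5-fold (10 ng), 11.9-fold (50 ng) and 8.85-fold lower (100 ng). The split by input is not given for 26 to 32 nt.

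Single sequences were tested where their mean over the 12 libraries was at least 5 RPM. That left 299 of the 59732 long sequences (0.501%), which held 38.6% of long RPM before and 49.2% after oxidation. Of these, 166 had a mean of at least 5 RPM in both states, 105 only before and 28 only after, so 133 passed through the state in which they were high. A further 105 had a mean between 4 and 5 RPM and were left out, and 54 of the 299 lay between 5 and 6 RPM. By length from 33 to 40 nt the tested numbers were 189, 47, 22, 11, 12, 4, 8 and 6. They had 259 different starts by their first 20 bases, with 70 of them sharing 30 starts, so they are not independent of each other.

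Averaged over inputs, 150 of the 299 fell, 14 rose and 135 were not called (limma-trend on log2(RPM + 1), adjusted p below 0.05 over all 22726 tested sequences). Among all tested sequences 22.8% fell and 21.2% rose. Without 1 or the other 10 ng library after oxidation, 29 or 31 of the long sequences rose in place of 14, beside 29.7% or 30.5% of all tested. The median log2 change was -1.08 among long sequences and -0.14 among all tested. At 32 nt, next to the long class, 295 of 1007 fell and 155 rose, with a median of -0.44. At 33 nt 78 of 189 fell and 12 rose, with a median of -0.76, and at 34 to 40 nt 72 of 110 fell and 2 rose, with a median of -2.0. Among the 166 present at 5 RPM in both states, 53 fell and 6 rose with a median of -0.65. In the 14736 table sequences that met the same condition 20.8% fell and 15.6% rose, with a median of -0.30. Of the 166, 34 of 120 at 33 nt fell and 5 rose, with a median of -0.63. At 34 to 40 nt 19 of 46 fell and 1 rose, with a median of -0.82. These 2 medians lay closer together than those of the 299. All 6 libraries after oxidation lay below all 6 before it for 86 of the 299 (6.42% of all tested) and above for 7 (9.68% of all tested).

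**Figure D2:**
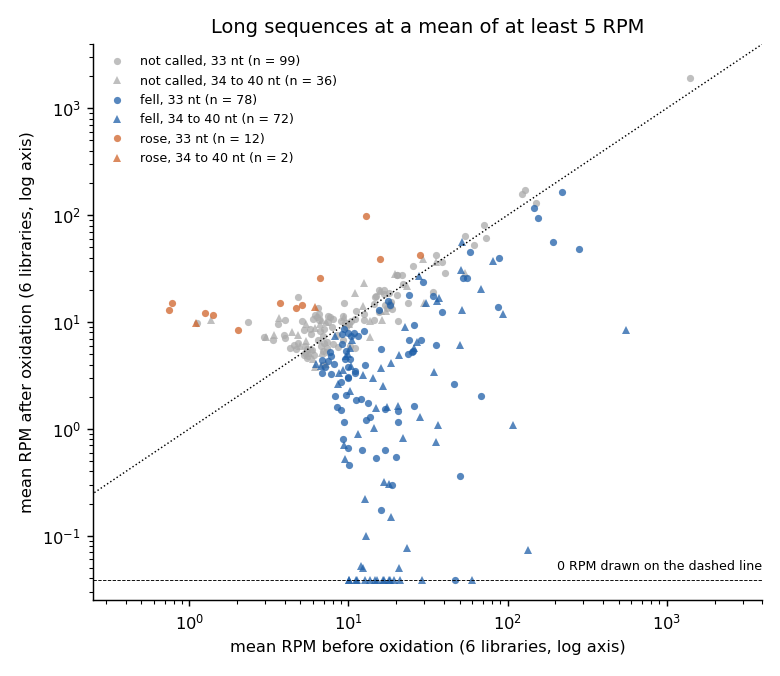
Mean RPM after against before oxidation (6 libraries each, log axes) of the 299 long sequences tested; circles are 33 nt and triangles 34 to 40 nt, and colour gives the limma call (150 fell, 14 rose, 135 not called). Points under the dotted line of equal values were lower after oxidation, and those on the dashed line had no read in any library after it.

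Reads of 17 of the tested long sequences were absent from all 6 libraries after oxidation, with means of 10.1 to 59.7 RPM before it. They were 5.69% of the 299, and 109 of all tested sequences (0.48%) had no read after oxidation. A single one of the 17 was 33 nt long, and 16 were 34 to 40 nt. The filter at a mean of 5 RPM over 12 libraries sets a mean of at least 10 RPM before oxidation for any sequence without a read after it, and so also sets the lower end of the limits that follow. Over the 6 libraries a limit of 3 reads is worth 0.191 RPM, so these 17 were at least 52.7-fold to at least 313-fold lower. These limits cover counting error only.

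The most abundant sequences of each length fell into different patterns. L33-1, the highest of all long sequences, had 901, 1452 and 2002 RPM (lowest, median and highest) before and 349, 2236 and 3425 RPM after oxidation. The groups overlapped, because its 10 ng libraries were lower after oxidation and its 50 and 100 ng libraries were higher. Averaged over inputs its log2 change was 0.02 ± 0.11 (SE; limma adjusted p = 0.898). The call for L33-1 depended on scaling and tool. It was called as fallen by edgeR with TMM (log2 change -0.51, adjusted p = 0.00775), by DESeq2 (-0.65, adjusted p = 0.000553) and per methylated spike-in by limma (-2.97, adjusted p = 4.3e-07). It took 6.37% of long RPM before and 15.1% after oxidation, and sums over the long class are therefore also given without it where it changes them.

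L34-1 and L35-1 share their start, L35-1 being L34-1 with another C at its 3′ end. L35-1 had 530, 562 and 574 RPM before and 0, 8.76 and 17.8 RPM after oxidation. Its groups were far apart, with a log2 change of -6.62 ± 0.27 (limma adjusted p = 1.8e-06). L34-1 had 36.1, 62.2 and 75.2 RPM before oxidation and no read in any library after it, at least 313-fold lower, with a fitted log2 change of -5.88 ± 0.25 (limma adjusted p = 1.84e-06).

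L36-1, a sequence found at 39 annotated places, had 25, 29.9 and 30.4 RPM before and no read after oxidation, at least 152-fold lower (limma adjusted p = 3.52e-06). L37-1 had 118, 129.9 and 149 RPM before, and after oxidation a single read in 1 library at 50 ng (0.445 RPM). Its log2 change of -6.98 ± 0.21 was the lowest of the 299 (limma adjusted p = 1.03e-06). L38-1 had 13.9, 21.0 and 29.6 RPM before oxidation and a single read after it, at 100 ng (log2 change -4.34 ± 0.26, limma adjusted p = 8.17e-06). L40-1 had 8.54, 23.5 and 40.4 RPM before and a single read after oxidation, at 10 ng (log2 change -4.36 ± 0.28, limma adjusted p = 1.03e-05).

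L39-1 fell less at the larger inputs. It had 41, 81.7 and 120.1 RPM before and 0, 33 and 93.2 RPM after oxidation, and the groups overlapped. At 10 ng it was at 0.462 RPM in 1 library after oxidation and 0 in the other, whereas at 100 ng it kept 93.2 and 63.8 RPM against 102 and 120.1 RPM before. Its log2 change was -5.40 with 10 ng of RNA, -1.33 with 50 ng and -0.52 with 100 ng (limma interaction of oxidation with input, adjusted p = 0.00108).

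**Figure D3:**
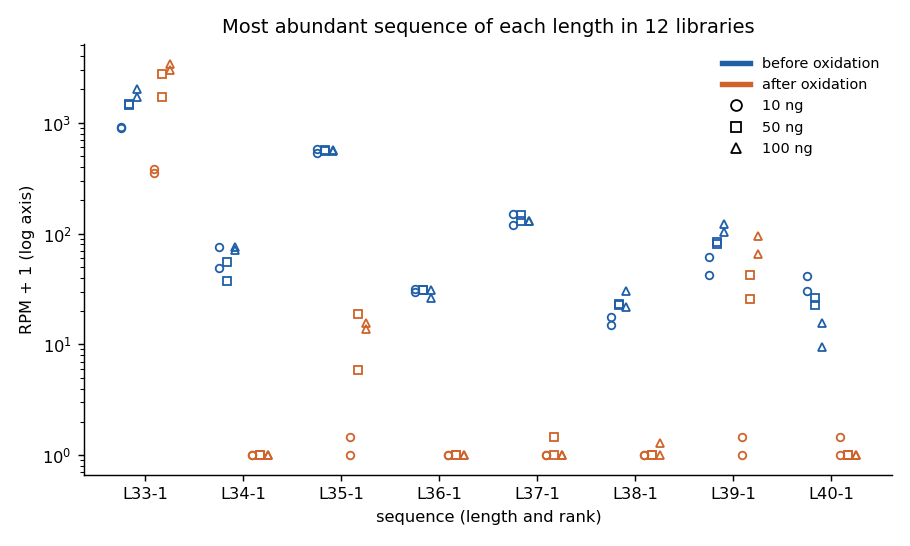
RPM + 1 (log axis) of the most abundant sequence of each length in the 12 libraries; blue is before and orange after oxidation, and marker shapes give the RNA input. L34-1 and L36-1 lie at 0 RPM in all 6 libraries after oxidation, and L33-1 spans 349 to 3425 RPM there.

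The other sequences that were highest before oxidation were of 33 nt and had smaller log2 changes than L35-1 and L37-1. L33-2 had 201, 292 and 374 RPM before and 0, 50.1 and 82.8 RPM after oxidation, with no overlap (log2 change -3.33 ± 0.70, limma adjusted p = 0.00427). Its log2 change was -4.15 without the first 10 ng library after oxidation and -2.52 without the second. L33-4 had 138, 206 and 258 RPM before and 5.72, 64.7 and 80.6 RPM after, again apart (log2 change -2.08 ± 0.38, limma adjusted p = 0.00217). L33-3 and L33-5 overlapped between the states, reaching 265 and 173 RPM after oxidation against medians of 224 and 162 RPM before. Their log2 changes were -0.63 ± 0.15 and -1.23 ± 0.21 (limma adjusted p = 0.00785 and 0.00157).

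Among the deepest falls below this abundance, L35-2 had 77.2, 117.8 and 121 RPM before and 0, 0.668 and 2.84 RPM after oxidation (log2 change -5.94 ± 0.25, limma adjusted p = 2.06e-06). L33-20 had a median of 56.3 RPM before and at most 1.26 RPM after (log2 change -5.22), and L33-14 a median of 62.7 RPM before and at most 4.74 RPM after (log2 change -4.93). For all 3 the highest library after oxidation lay below the lowest before it.

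Rises were fewer, and the 6 named here, chosen for the highest log2 changes, started from low levels. Of all 14 sequences that rose, named or not, 6 had a mean of at least 5 RPM in both states. L33-78 had 9.31, 13.3 and 15.5 RPM before and 46.9, 85.3 and 174 RPM after oxidation, with no overlap and a log2 change of 2.69 ± 0.19 (limma adjusted p = 1.56e-05). L33-188 had a mean of 0.776 RPM before and 15 RPM after, L33-189 0.750 and 13.1 RPM, L33-186 1.26 and 12.3 RPM, L33-185 1.42 and 11.8 RPM, and L34-47 1.10 and 9.82 RPM. These 5 had mean levels under 5 RPM before oxidation and so entered the test through their levels after it. Scaled to the methylated spike-ins, where the median change of all tested sequences was -3.01 in place of -0.14, none of the 299 rose and 287 fell, beside 0.942% and 85.7% of all tested, and L33-78 had a log2 change of -0.20.

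The calls were most numerous at 10 ng. There 180 of the 299 fell and 19 rose (31.5% and 21.4% of all tested; limma, adjusted p below 0.05). At 50 ng 68 fell and 5 rose (3.44% and 5.77% of all tested), and at 100 ng 58 fell and 1 rose (2.16% and 1.91% of all tested). The long sequences had median log2 changes of -2.64, -0.62 and -0.16 at 10, 50 and 100 ng, beside -0.69, 0.20 and 0.25 over all tested sequences. Both 10 ng libraries after oxidation lacked any read of 132 of the 299, against 28 for both at 50 ng and 23 for both at 100 ng. For both 10 ng libraries before oxidation the number was 0. The same counts over all tested sequences are not given here. At 29 to 32 nt the 10 ng libraries after oxidation also held fewer distinct sequences. They had 32572 and 23214, against 89660 to 109213 at 50 and 100 ng after oxidation. A limit of 3 reads is worth 1.39 and 1.56 RPM in those 2 libraries. The fit shares its spread over all groups, and without the first or the second of them 110 and 110 fell at 50 ng (10.2% and 10.2% of all tested), 89 and 89 fell at 100 ng (6.5% and 6.51%), and 34 and 38 rose at 10 ng (28.9% and 28.4%). Without 1 library of the same input the numbers that fell were 39 at the lowest for 50 ng (first library before oxidation, 1.12% of all tested) and 31 for 100 ng (first library before oxidation, 0.779% of all tested).

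Without both 10 ng libraries after oxidation, 119 of the 299 fell and 29 rose at 50 and 100 ng (13.5% and 23.8% of all tested; limma, adjusted p below 0.05). The medians were then -0.37 among long and 0.23 among all tested sequences. The change depended on input for 68 of the 299 (23.1% of all tested; limma moderated F test of the interaction, adjusted p below 0.05). These 68 were 22.7% of the long sequences, close to the share of all tested. The F test covers all 3 inputs and does not test 10 against 100 ng by itself. In value the change was lower at 10 ng than at 100 ng for 61 of the 68 and higher for 7, beside 4106 and 1144 of all tested sequences called. Leaving out the first or the second 10 ng library after oxidation raised the 68 to 151 or 136 (55.2% or 45.3% of all tested), and leaving out a library before oxidation lowered it to as few as 41 (second library at 10 ng, 13.9% of all tested).

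Sequences with the same start showed where the length of a family shifted. The 20 bases that begin L33-1 were found almost only in long sequences, with 89.7% of the RPM at 33 nt or longer before and 88.0% after oxidation. Its 33 nt form dominated in both states, its 32 nt form had 154 ± 36.8 RPM before and 235 ± 33.2 RPM after, and its 34 nt form 37.3 ± 10.9 and 16.8 ± 6.48 RPM (SD, n = 6 each). The family of L35-1 and L34-1 was 99.0% long before oxidation and went from 696 to 14.0 RPM in all, with no abundant shorter form in either state. The family of L37-1 was 89.4% long before and 0.352% after oxidation. Its most abundant length moved from 37 nt to 29 nt, because the 37 nt forms were lost while the 29 nt form had 11 ± 4.81 RPM before and 15.7 ± 5.67 RPM after.

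Other long sequences were the minor form of a shorter family. The start of L33-2 was most abundant at 29 and 30 nt, with 1872 ± 264 and 1749 ± 462 RPM before and 1901 ± 1048 and 1926 ± 1287 RPM after oxidation. Its 32 nt form went from 876 ± 251 to 332 ± 248 RPM and its 33 nt form from 282 ± 61.5 to 48.6 ± 34 RPM, so its long part went from 5.44% to 0.987% of the family. The start of L33-78 was most abundant at 32 nt, with 100.1 ± 11.2 RPM before and 285 ± 20.7 RPM after, and its long part went from 11.6% to 22.3%. The start of L35-2 was 95.2% long before and went from 177 to 8.86 RPM in all.

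**Figure D4:**
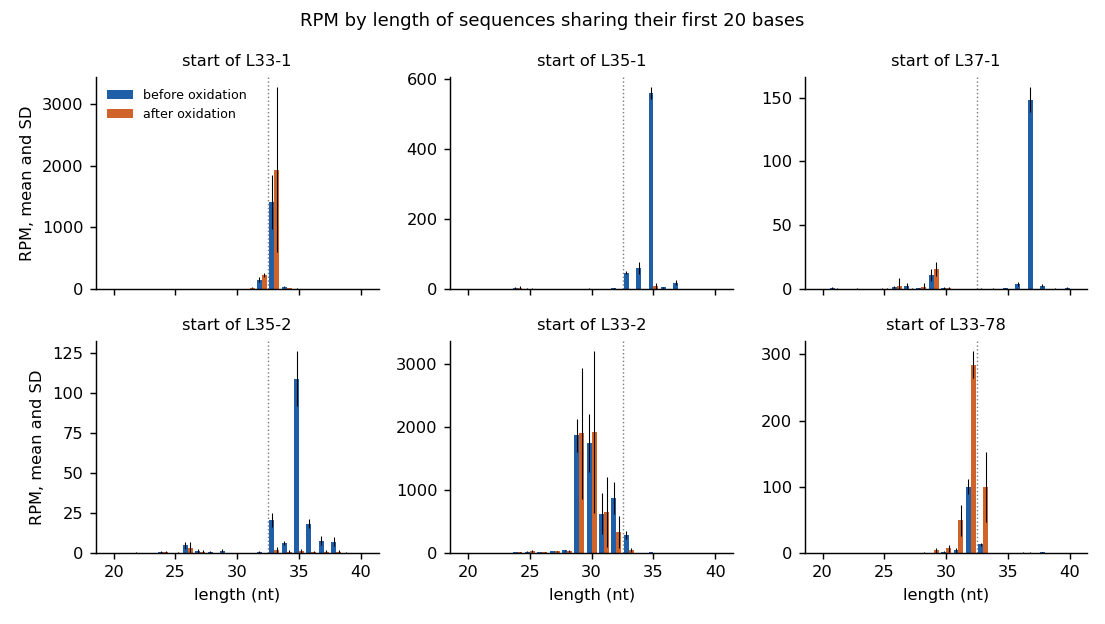
RPM by length of sequences that share their first 20 bases with L33-1, L35-1, L37-1, L35-2, L33-2 or L33-78; bars are means and lines SDs of 6 libraries before (blue) and after (orange) oxidation, and the dotted line divides 32 from 33 nt. The 35 nt and 37 nt peaks of L35-1 and L37-1 nearly vanish after oxidation, while the peaks of L33-2 at 29 and 30 nt do not.

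Long sequences that extend an abundant piRNA were set beside that piRNA. A partner was the exact 5′ part of a long sequence, 26 to 32 nt long and at a mean of at least 5 RPM. Where several qualified, the one with the highest mean RPM over the 12 libraries was taken, so the choice used levels after oxidation too. Long sequences with a partner took 48.3% ± 2.00 of long RPM before and 61.8% ± 5.48 after oxidation (SD, n = 6 each), a rise of 13.4 percentage points with no overlap (exact permutation p = 0.00926). Long RPM here includes L33-1, which itself went from 6.37% to 15.1% of it. Over those sequences the ratio of long to partner RPM was -4.55 ± 0.101 before and -5.29 ± 0.333 after on the log2 scale, 1.67-fold lower (exact permutation p = 0.00926).

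Of the 299 tested, 200 had a partner, shared so that there were 180 different partners. The median log2 change was -0.79 for the 200 long sequences and -0.20 for their partners, and the change of the long form lay below that of its partner in 146 of 200. Partners were chosen by their mean over both states, whereas 105 of the 299 long sequences reached 5 RPM only before oxidation. The part of this selection in the difference was not tested. Among the 200, 82 fell and 12 rose, and among the 180 partners 46 fell and 44 rose. The 99 without a partner had a median of -2.10, with 68 that fell and 2 that rose. Over all tested sequences 22.8% fell and 21.2% rose, shares near those of the partners. L33-4 and its 32 nt partner moved alike, with log2 changes of -2.08 and -1.98, as did L33-14 and its partner with -4.93 and -4.64. L33-2 and L37-1 differed from their 29 nt partners, whose log2 changes were -0.23 and 0.51.

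Few long sequences lay in annotated transcripts. An exact match to a GENCODE M21 transcript of GRCm38 was found for 26 of the 299 (8.70%), 23 of them in sense and 3 only in antisense, against 13.5% of the tested 26 to 32 nt sequences. L33-1 matched the long noncoding RNA Gm10619 (ENSMUSG00000074067.9) in sense, at chr7:73809728-73809760 on the minus strand, and L34-4 and L35-18 were the same sequence with the next transcript base or bases added. These went from 37.3 to 16.8 RPM and from 6.73 to 3.87 RPM, with log2 changes of -1.13 and -1.34 beside 0.02 for L33-1 (limma adjusted p = 0.00836, 0.028 and 0.898).

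Gm10619 held 3 more tested long sequences. L33-27 (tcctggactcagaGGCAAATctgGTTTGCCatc) at chr7:73816294-73816326 went from 35.4 to 6.05 RPM, L34-13 (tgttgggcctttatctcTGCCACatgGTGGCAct) at chr7:73809462-73809495 from 20.5 to 1.63 RPM, and L33-160 from 5.75 to 8.60 RPM. The log2 changes were -2.95, -3.23 and 0.13 (limma adjusted p = 0.000166, 3.55e-05 and 0.882), so L33-27 and L34-13 fell and L33-160 was not called. The neighbouring noncoding gene Gm21269, on the opposite strand, held L33-36 and L35-15, which end at the same base and begin 2 bases apart. Their log2 changes were 0.36 and -0.88 (limma adjusted p = 0.276 and 0.0308).

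The base composition of long sequences differed from that of 26 to 32 nt before oxidation. U was the first base in 82.3% ± 1.05 of long RPM against 89.4% ± 0.0506 at 26 to 32 nt, A in 7.80% against 5.00%, C in 5.67% against 2.69% and G in 4.19% against 2.95%. At the 3′ end, C was the last base in 42.0% of long RPM against 35.9%, U in 42.3% against 37.3%, A in 10.7% against 15.9% and G in 4.93% against 10.9%. Each difference had the same direction in 6 of 6 libraries before oxidation (exact sign-flip permutation, p = 0.0312, the smallest that 64 arrangements can give, and 0.0344 adjusted over 11 features). An A at base 10, a mark of piRNAs made by reciprocal cleavage, was found in 34.8% against 34.4%, which did not pass that test (exact permutation p = 0.344). Without L33-1 it was 37.2% against 34.4%, higher in 6 of 6 libraries (exact sign-flip permutation p = 0.0312).

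After oxidation 8 of the 9 base percentages of the long sequences had changed. U and C as first base rose to 86.5% ± 0.604 and 6.72% ± 0.616, and A, G and A at base 10 fell to 4.74%, 2.01% and 26.2% of long RPM. Last bases A and G fell to 7.72% and 2.22%, and last base C rose to 47.1% (exact permutation p = 0.00926 for each, 0.0104 adjusted over 9). Last base U was at 42.9% (exact permutation p = 0.519). The fall of A at base 10 was larger than at 26 to 32 nt by 7.29 percentage points, that of first base G by 1.65 points and that of last base A by 2.62 points (exact permutation, adjusted p = 0.0139, 0.0139 and 0.0238).

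L33-1 begins with U and ends with C. Before oxidation, last base C without L33-1 was at 38.1% of long RPM against 35.9%, a difference of 2.23 points in place of 6.17. After oxidation it was at 37.6% against 39.1%, lower in 6 of 6 libraries, whereas with L33-1 it was at 47.1% against 39.1%, higher in 6 of 6. Without L33-1, last base C changed by -0.46 points (exact permutation, adjusted p = 0.333) and last base U by 5.49 points (exact permutation, adjusted p = 0.0104). Among only the sequences at a mean of at least 5 RPM, first base U changed by -0.66 points and A at base 10 by -2.78 points, and neither passed (exact permutation, adjusted p = 0.509 and 0.167).

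Many long sequences ended in a predicted hairpin. The folding energy of the last 20 bases, a measure chosen after the sequences were seen, was at most -3 kcal/mol (called a stable 3′ end) for 6.00% of RPM at 26 nt before oxidation, 10.7% at 30 nt, 17.5% at 31 nt, 26.9% at 32 nt and 39.9% at 33 nt, and for 34.7% to 48.0% at 34 to 40 nt. Over the whole class it was 40.8% ± 3.07 at 33 to 40 nt and 11.7% ± 1.05 at 26 to 32 nt (SD, n = 6 each), higher in 6 of 6 libraries (exact sign-flip permutation, p = 0.0312). Without L33-1 the long class was at 36.8%. The 5′ ends differed less, with 9.53% against 4.29%. At 35 nt the stable 5′ ends, among them that of L35-1 (-5.80 kcal/mol), went from 27.1% ± 1.03 to 4.15% ± 2.17 of RPM after oxidation. L35-1 alone went from a mean of 559 to 8.40 RPM, so this fall rests in large part on 1 sequence.

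**Figure D5:**
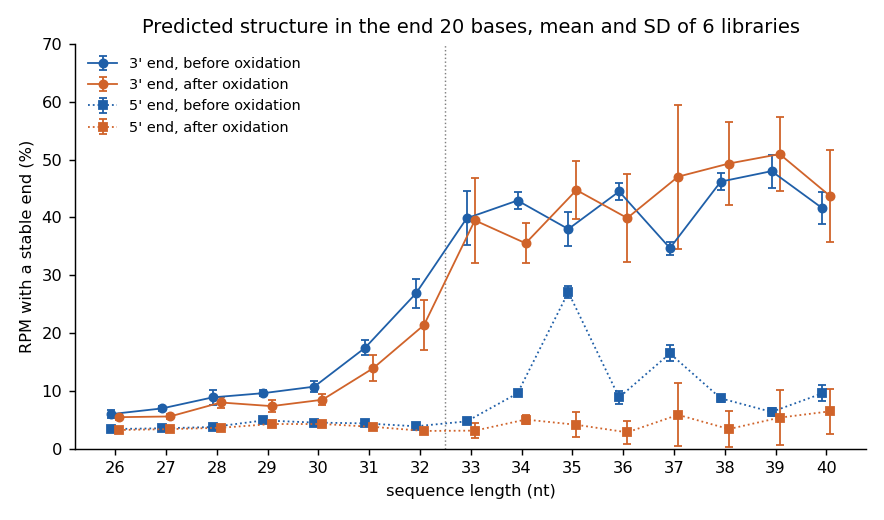
Percent of RPM whose last 20 bases (circles) or first 20 bases (squares) have a predicted folding energy of at most -3 kcal/mol, by length from 26 to 40 nt; points are means and bars SDs of 6 libraries before (blue) and after (orange) oxidation. The 3′ end rises from 6.00% at 26 nt to 39.9% at 33 nt before oxidation, and the 5′ end has peaks at 35 and 37 nt that are absent after it.

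The share was also higher at matched base content. GC in the last 20 bases was 46.9% in long and 44.6% in 26 to 32 nt sequences. Among tested sequences with 40 to 45% GC there, 25.4% of 33 nt and 39.4% of 34 to 40 nt sequences had a stable 3′ end against 6.19% at 26 to 32 nt, and at 60 to 65% GC 84.2% and 82.6% against 29.1%. Over all sequences in the table, whatever their RPM, the gap was smaller, with 15.9% and 18.4% against 6.47% at 40 to 45% GC and 56.8% and 56.4% against 30.4% at 60 to 65% GC. Of the 299, 114 had a stable 3′ end, with a median of 2 unpaired bases after the stem. L35-2 (-7.90 kcal/mol), L33-14 (-8.00 kcal/mol) and L39-1 (-5.50 kcal/mol) are examples, whereas L33-4, L33-5 and L40-1 were at 0 kcal/mol.

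Whether this share differed after oxidation depended on the sequences counted. It was 39.9% ± 6.52 after against 40.8% before (exact permutation p = 0.491). Without L33-1, which has a stable 3′ end, it changed by -7.58 percentage points (exact permutation p = 0.00926), and among only the sequences at a mean of at least 5 RPM by 6.56 points (exact permutation p = 0.00926). Of the 114 tested sequences with a stable 3′ end, 74 fell and 2 rose with a median log2 change of -1.78, and of the other 185, 76 fell and 12 rose with a median of -0.79. Within 33 nt the medians were -1.43 and -0.64, and within 34 to 40 nt -2.28 and -1.89. Over all tested sequences 22.8% fell and 21.2% rose. These counts were not limited to sequences at 5 RPM in both states, and 105 of the 299 reached 5 RPM only before oxidation.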

How the data were processed

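Per the file headers the deposited piRNA values of the 12 libraries are RPM, and the authors gave the spike-ins as unscaled read counts. The submitters' processing notes name Bowtie and the builds mm10 and hg38, and the role of hg38 and the RPM denominator are not given in the sources used here. Denominators were recovered from the step that 1 read makes, and 100% of values were then whole reads within 0.01 of a read. The members and lists were chosen with earlier results of these data known.

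Sums by length and base were compared by exact permutation tests, 2-sided, in which oxidation labels were exchanged inside each input. On log2(RPM + 1), limma-trend (limma 3.58.1 in R 4.3.3) estimated 6 group means for the 22726 sequences averaging 5 RPM or more, and p-values were adjusted over all of them. The count tools edgeR 4.0.16 and DESeq2 1.42.0 were run on recovered reads. Tests were checked on simulated data. Named sequences are the highest before oxidation of each length, the 6 highest at any length, and the 6 lowest and 6 highest log2 fold changes. In each list of 6, only the first by rank of the sequences with the same first 20 bases was taken. The most abundant of each length was kept where it shared a start with another. Folding energies are from ViennaRNA 2.7.2 at 37 °C. Transcripts and gene names are from GENCODE M21 (GRCm38), and no genome sequence was searched. No per-sample column was left unused. Settings with other pseudocounts, filters, scalings and left-out libraries are in the closing section.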

Additional observations from a re-analysis of the deposited data

Results flagged for a closer look

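The effect of oxidation depended on input, by the limma moderated F test of the interaction over all 3 inputs, for 68 of the 299 long sequences tested. This is 22.7% of them, close to the 23.1% of all tested sequences. Of the named sequences, 5 were among them. The adjusted p-values below are those of this F test, and the difference between 10 and 100 ng was not tested by itself. The log2 change at 10 ng minus that at 100 ng was -4.88 for L39-1 (adjusted p = 0.00108), -3.57 for L35-1 (adjusted p = 0.00855), -2.87 for L33-5 (adjusted p = 0.00896), -2.09 for L33-1 (adjusted p = 0.00173) and -1.71 for L33-3 (adjusted p = 0.024). L33-1 and L33-3 were lower after oxidation at 10 ng (-1.31 and -1.52) and higher at 100 ng (0.78 and 0.18). Both 10 ng libraries after oxidation also had the most reads per distinct sequence, at 23.8 and 28.3 for long sequences, and the part of this in these differences was not tested.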

How the results depend on the processing

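The share of long sequences and of each single length fell under every alternative that gave a value, among them distinct sequences after thinning, RPM as deposited, reads other than miRNA reads and each library left out. The log2 change of the long share was -1.22 to -1.14 when 1 library was left out. The exception to the threshold is the log2 change of -0.96 without the 4 libraries at 10 ng, whose smallest possible p is above 0.05 by construction. Lengths of 38 and 40 nt gave no value among sequences at a mean of at least 5 RPM, because a library had no such read. The cause of the changes below was not tested except where fewer sequences were fitted.

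Among only sequences at a mean of at least 5 RPM, the percentage points of change were -0.66 for first base U, -6.98 for last base U, -0.52 for last base A and -2.78 for A at base 10. Without the most abundant long sequence they were 5.49 for last base U and -0.46 for last base C. For the stable 3′ end the change was -5.22 points at an energy of at most -2 kcal/mol, 6.56 among sequences at 5 RPM and -7.58 without the most abundant one, and relative to 26 to 32 nt it was -2.68, 8.59 and -5.23 points in the same order, beside 1.44 over all sequences. The settings in this paragraph other than the 5 RPM filter on bases were chosen after seeing the data.

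Counts of long sequences are given as fell and rose. At a mean of at least 50 RPM, where 23 were tested, the average over inputs gave 14 and 1 and the 10 ng contrast 19 and 2. The 50 ng contrast gave 5 and 1 and the 100 ng contrast 6 and 2, with 13 input dependent. Over all 1789 sequences at this mean the average gave 582 and 520 and the 10 ng contrast 944 and 442. The 50 ng contrast gave 156 and 391 of the 1789 and the 100 ng contrast 116 and 351, with 930 input dependent. Without a filter the average gave 458 and 8, the 50 ng contrast 5 and 0 and the 100 ng contrast 4 and 0, with 3 input dependent. Over all 1018402 sequences the average then gave 4654 and 2118, the 50 ng contrast 59 and 146 and the 100 ng contrast 32 and 82. Of these sequences 525 were input dependent. Scaled to methylated spike-ins none rose and 287 fell on average, 276 at 10 ng, 242 at 50 ng and 202 at 100 ng (0 risen in each). Of all tested sequences 85.7% then fell on average, 77.6% at 10 ng, 61.6% at 50 ng and 53.9% at 100 ng. At 10 ng 9 rose with edgeR and TMM and 9 with DESeq2, beside 2421 and 2972 of all 22726 tested. At 50 ng 1 rose with a pseudocount of 0.1, 1 with edgeR, 1 with edgeR and TMM, 3 as share of the table and 3 when centred on library medians. In the same order 916, 941, 504, 955 and 888 of all 22726 tested rose. At 100 ng 3 rose with a pseudocount of 10 and 0 with edgeR and TMM, beside 571 and 139 of all 22726 tested. Input dependence was called for 42 with a pseudocount of 10 and for 125 with DESeq2, beside 4104 and 7387 of all 22726 tested. Averaged over inputs, 162 fell and 14 rose with edgeR and 191 and 10 with DESeq2. Of all 22726 tested, 5630 fell and 4989 rose with edgeR at the recovered library sizes. With DESeq2 8807 fell and 3261 rose.

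With 1 library left out, 132 to 188 fell and 10 to 31 rose averaged over inputs. The ranges were 151 to 217 and 13 to 38 for 10 ng, 39 to 110 and 1 to 15 for 50 ng, and 31 to 89 and 0 to 10 for 100 ng, and 41 to 151 were input dependent. Each upper end came from leaving out a 10 ng library after oxidation, and without both 29 rose (23.8% of all tested). Over all 22726 tested sequences the counts were also highest when a 10 ng library after oxidation was left out, in each contrast and direction. These ranges therefore do not set long sequences apart. Each of these refits with 1 library left out has a group with 1 library.

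The log2 change of L33-1 was -0.16 as share of the table, -0.18 when centred, -2.97 per methylated spike-in, -0.51 with edgeR and TMM and -0.65 with DESeq2, and -0.0921 to 0.13 with 1 library left out. It was called as fallen per methylated spike-in, with edgeR and TMM and with DESeq2, but not by the test of the report. That of L33-78 was -0.20 per methylated spike-in. The median change of all tested sequences, -0.14, was -0.30 as share of the table, -0.34 when centred, -3.01 per methylated spike-in, -0.49 with edgeR and TMM and -0.64 with DESeq2.

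Same-numbered libraries did not deviate together (15 distinct correlations of -0.0549 to 0.00996). This cannot settle whether the replicate numbers pair libraries, because paired technical replicates need not share a deviation, and the labels do not say. With the replicate block the long share had a log2 change of -1.18 (exact sign-flip permutation, p = 0.0312), 148 fell and 13 rose averaged over inputs, and 3 rose at 50 ng in place of 5. Of all 22726 tested, 5021 fell and 4707 rose averaged over inputs with this block, and 1043 rose at 50 ng.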
